A study of Mus musculus with 4 samples.

Results

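Rsad2, Mx1, Mx2, Ifit1, Ifit2, Ifit3, Ifi44, Bst2, Ifitm3 and Xaf1 are interferon-induced genes whose products act against viruses inside the infected cell or at its membranes. RNA-Seq counts were taken for these 10 of the 53465 listed genes by matching their symbols. They were chosen with earlier results of the same libraries known, because Rsad2 and Mx2 had the smallest adjusted p in the comparison of the genotypes. Their differences between the genotypes were thus selected on and are given as a description without a test. In Zfp276cko cells 9 of the 10 transcripts lay above both ctrl libraries, a pattern that 26.8% of all tested genes shared. Their log2 fold changes ran from 0.98 to 5.28, and Ifi44 overlapped between the genotypes.

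The libraries came from primary mouse oligodendroglial cultures (1° OGCs) after 3 days of differentiation, 2 from ctrl and 2 from Zfp276cko cells. Ctrl cells were homozygous for the floxed Zfp276 allele (Zfp276 fl/fl) without Cre, and Zfp276cko cells carried Sox10::Cre in addition, a transgene that is active from oligodendrocyte precursor cells (OPCs) onwards. The pups, of mixed C3H and C57Bl/6J descent, were used between postnatal days 2 and 4, and were pooled per preparation. Cells in which Sox10::Cre was not active would keep the floxed allele, but Zfp276 was not measured by cell type in these libraries. The paper relates the Zfp276 RNA that remained in Zfp276cko cells to incomplete deletion. The genotypes thus differed in Cre as well as in Zfp276. A Cre reporter allele for tdTomato was bred in to recognise mutant pups, so they may also have differed in the reporter.

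Interferons bind receptors on the cell surface, whose kinases of the Jak family activate transcription factors in the cytoplasm. These enter the nucleus, bind interferon-stimulated response elements and switch on a broad set of genes. Cytosolic sensors of foreign RNA or DNA start the production of interferon, and Usp18 and Socs1 dampen the response. In the brain, microglia, astrocytes and oligodendroglia can all answer to interferon.

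Promoters are shown because the response element is the sequence that such genes usually share. RefSeq promoters on GRCm38.p6 reach from 250 bases before to 50 bases after an annotated start and were available for 8 of the 10 genes, as 9 promoters with a pair for Ifit2. The searched core was GAAANNGAAA on either strand, read as TTTCNNTTTC on the other. It was present in 5 of the 9 promoters and in 3.44% of all 32851. The genes were Rsad2, Ifit1, Ifit3, Bst2 and Ifitm3. In Ifitm3 both matches reached past the start, and with the bases after the start left out, 4 of the 9 promoters and 2.98% of all promoters held the core. No match was found in the windows of Ifi44, Xaf1 and Ifit2. The stretches below run 5′ to 3′ on the strand of the gene, with the matched cores in capitals.
Rsad2, chr12:26456543-26456592, minus strand: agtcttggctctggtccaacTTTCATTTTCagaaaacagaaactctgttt
Ifit1, chr19:34640765-34640833, plus strand: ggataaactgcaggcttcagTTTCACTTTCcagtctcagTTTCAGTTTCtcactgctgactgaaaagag
Ifit3, chr19:34583353-34583436, plus strand: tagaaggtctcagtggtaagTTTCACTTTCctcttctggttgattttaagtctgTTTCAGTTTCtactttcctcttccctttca
Bst2, chr8:71537567-71537622, minus strand: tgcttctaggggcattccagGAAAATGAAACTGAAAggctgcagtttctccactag
The nearest core ended 110 bases before the start in Rsad2, 75 in Ifit1, 112 in Ifit3 and 114 in Bst2. Ifit1 and Ifit3 held the same pair of cores, TTTCACTTTC followed by TTTCAGTTTC, and in Bst2 a pair of cores overlapped. The core of the gamma-activated site, TTCNNNGAA, was found in 3 of the 9 promoters (Ifitm3, Bst2 and 1 of the Ifit2 promoters) and in 8.3% of all. These matches describe the sequence, and binding was not measured.

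The libraries held between 21068322 and 26599809 counted reads, and 15766 genes passed the filter on low counts, all 10 effectors among them. Values are normalized counts, scaled to a common library size with TMM. Zfp276 itself was at 1632 and 2209 normalized counts in the ctrl libraries and at 485 and 498 in the Zfp276cko libraries, a log2 fold change of −1.97 ± 0.18 (SE). Oligodendrocyte markers were abundant in every library, and the summed counts of 12 of them lay between 236660 and 463972. The 18 microglia and macrophage markers summed to 53190.3 to 75999.6 normalized counts, so RNA of such cells was in every library, although Siglech had no count in any library. The ctrl libraries stood apart from each other. The mean chi-square per gene between replicates, which is about 1 for counting error alone, was 80.0 in the ctrl libraries and 5.23 in the Zfp276cko libraries. In ctrl replicate 1, markers of endothelial, mural and fibroblast cells summed to 5838 normalized counts, against 288 to 407 in the other libraries. Nothing in the labels says what set this library apart, and in bulk RNA a change in the number of cells of a type and a change of RNA per cell cannot be told apart.

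Rsad2 encodes viperin, a radical SAM enzyme that makes a nucleotide which ends viral RNA chains. It was at 255 and 193 normalized counts in the ctrl libraries and at 8535 and 8828 in the Zfp276cko libraries. The means were 224 ± 44.1 and 8681 ± 207 (SD, n = 2 each), which was 38.8-fold higher, or a log2 fold change of 5.28 ± 0.19 (SE). The ctrl libraries were close together, and every Zfp276cko library lay far above them. Among the 10 transcripts this was the largest fold change against the mean of the ctrl libraries, whereas without ctrl replicate 1 the log2 fold changes of Ifit3 (6.12) and Ifit1 (5.68) exceeded that of Rsad2 (5.49). Rsad2 lies on chr12:26442746-26456452 (minus strand, mm10). Its neighbour Cmpk2, a nucleotide kinase whose gene lies 12.8 kb away, had 623 and 250 normalized counts in the ctrl libraries and 3779 and 3921 in the Zfp276cko libraries. The neighbour on the other side, Rnf144a, had a log2 fold change of −0.07.

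Mx1 and Mx2 encode dynamin-like GTPases that trap viral components, in the nucleus and in the cytoplasm, and lie 72.4 kb apart on chr16, Mx1 at chr16:97447035-97462907 (minus strand) and Mx2 at chr16:97535308-97560900 (plus strand). Many laboratory strains carry defective alleles, and the annotation lists Mx2 as a polymorphic pseudogene. Mx2 was at 583 and 594 normalized counts in the ctrl libraries and at 2588 and 2587 in the Zfp276cko libraries, 4.39-fold higher, with a log2 fold change of 2.14 ± 0.09 (SE). No other gene of the 10 had ctrl libraries this close, with a ratio of 0.982 between replicate 1 and 2. Mx1 was at 161 and 47.9 in the ctrl libraries and at 1585 and 1588 in the Zfp276cko libraries, a log2 fold change of 3.93 ± 0.60 (SE) and 15.2-fold between the means. Here the ctrl libraries differed 3.36-fold, although they remained far below the Zfp276cko libraries. The ratio of Mx2 to Mx1, taken on normalized counts per kilobase of exon, was 3.79 and 12.98 in the ctrl libraries and 1.71 in both Zfp276cko libraries. Of 101-base windows, the read length, 1.22% of the Mx1 transcript and 1.73% of the Mx2 transcript are found in the other gene, so few reads could be confused.

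The Ifit genes encode tetratricopeptide proteins of the response to foreign RNA, with Ifit1 recognising its cap. They form a cluster on the plus strand of chr19, with Ifit2 at chr19:34550694-34576419, Ifit3 at chr19:34583531-34588731 and Ifit1 at chr19:34640871-34650009. Ifit3 was at 741 and 217 normalized counts in the ctrl libraries and at 15659 and 14605 in the Zfp276cko libraries, 31.6-fold higher between the means, a log2 fold change of 4.98 ± 0.68 (SE). Ifit1 was at 652 and 195 in the ctrl libraries and at 10121 and 9911 in the Zfp276cko libraries, 23.7-fold, with a log2 fold change of 4.57 ± 0.65. For Ifit2 the ctrl libraries held 475 and 227 and the Zfp276cko libraries 3592 and 3961, which was 10.8-fold, with a log2 fold change of 3.43 ± 0.39. In all 3 genes ctrl replicate 1 lay above ctrl replicate 2, by 3.41-fold for Ifit3, 3.34-fold for Ifit1 and 2.09-fold for Ifit2, and the genotypes did not overlap. Ifit3 shares 31.3% of its 101-base windows with Ifit3b, so its count is uncertain where reads of both copies could not be placed. Ifit1bl2, 0.128 kb from Ifit1 and sharing 3.21% of the windows of Ifit1, had a log2 fold change of 3.10, and Ifit1bl1, on the other side of Ifit3, 2.17. At the outer ends of the cluster Lipa had 0.25 and Pank1 −1.05.

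Xaf1, at chr11:72301629-72313733 (plus strand), encodes a protein that binds the apoptosis inhibitor XIAP. It was at 276 and 64.7 normalized counts in the ctrl libraries and at 2035 and 2113 in the Zfp276cko libraries, 12.2-fold higher between the means, with a log2 fold change of 3.61 ± 0.71 (SE). Bst2, at chr8:71534255-71537456 (minus strand), encodes tetherin, which holds budding virions on the cell surface. It was at 1541 and 362 in the ctrl libraries and at 6434 and 5919 in the Zfp276cko libraries, 6.49-fold, with a log2 fold change of 2.70 ± 0.73 (SE). In both genes the ctrl libraries differed over 4-fold, and ctrl replicate 1 lay about midway between ctrl replicate 2 and the Zfp276cko mean for Bst2.

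Ifitm3, at chr7:141009586-141010770 (minus strand), encodes a membrane protein of endosomes that hinders the fusion of entering viruses. It was at 2171 and 321 normalized counts in the ctrl libraries and at 2742 and 2199.9 in the Zfp276cko libraries, so that the lower Zfp276cko library lay only just above ctrl replicate 1. With the size factors of DESeq2 in place of TMM, 8 rather than 9 genes lay above both ctrl libraries, and without TMM factors all 10 did, Ifi44 included. The log2 fold change of 0.99 ± 0.89 (SE) became 2.94 without ctrl replicate 1 and 0.17 without ctrl replicate 2. Ifi44, at chr3:151730922-151749960 (minus strand), encodes an interferon-induced cytoplasmic protein. It was at 810 and 27.9 in the ctrl libraries and at 783 and 867 in the Zfp276cko libraries, so the genotypes overlapped with TMM. Its log2 fold change was 0.98 ± 1.36 (SE), 4.88 without ctrl replicate 1 and 0.01 without ctrl replicate 2. For these genes the difference between the genotypes therefore rested on which ctrl library it was taken against. The fibroblast transcripts Col1a1 and Col1a2 moved with the same library, at 2498 and 2678 normalized counts in ctrl replicate 1 and at 73.5 or less in the others. Of 17 tested microglia and macrophage markers, 7 were at least 2-fold higher in ctrl replicate 1 than in ctrl replicate 2, as were 7.77% of all tested genes. Among them were Mrc1 (561 against 53.8 or less in every other library) and Csf1r (11301 against 1833). Aif1 (1236 against 3173), Fcrls (12605 against 18151) and Sall1 (666 against 1263) were lower in ctrl replicate 1. Neuron markers were lower in ctrl replicate 1 too, with a median log2 difference of −3.74 over 9 tested genes and Gad1 at 77.6 against 1983. The part of these cells in the level of Ifi44, Ifitm3 and Bst2 was not tested.

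**Figure D1:**
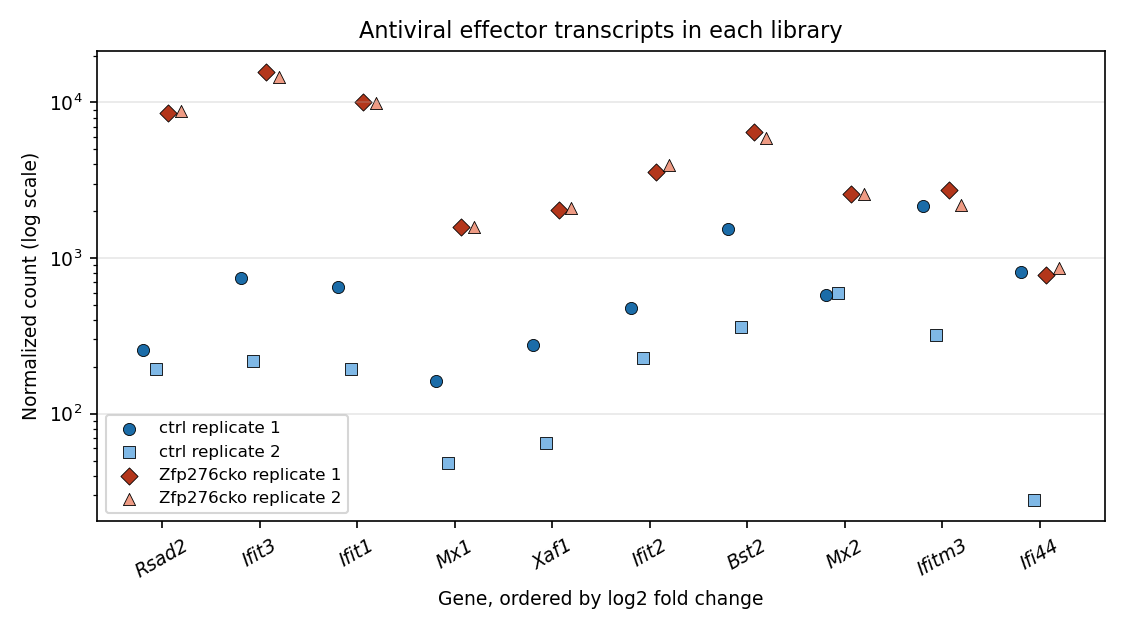
Normalized counts (y axis, log scale) of the 10 genes (x axis, ordered by log2 fold change) in each of the 4 libraries. Rsad2 and Mx2 have ctrl libraries close together and far below Zfp276cko, whereas ctrl replicate 1 reaches the Zfp276cko level for Ifi44 (810 against 783 and 867) and nearly so for Ifitm3.

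The difference between the ctrl libraries set the 10 genes apart from each other. On a log2 scale from ctrl replicate 2 (0%) to the mean of the Zfp276cko libraries (100%), ctrl replicate 1 stood at −1.24% for Mx2 and at 7.35% for Rsad2. It stood at 26.2% for Ifit2, 28.9% for Ifit3, 30.6% for Ifit1, 34.5% for Mx1, 41.8% for Xaf1 and 51.0% for Bst2. For Ifitm3 it stood at 93.9% and for Ifi44 at 99.5%. Ctrl replicate 1 was at least 2-fold above ctrl replicate 2 for 8 of the 10 genes, where 7.77% of all tested genes were. The median difference of ctrl replicate 1 from replicate 2 was 1.75 on the log2 scale over the 10 genes and −0.0045 over all tested genes. The Zfp276cko libraries were close for each gene, and the largest difference between them was 0.32 on the log2 scale, for Ifitm3.

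**Figure D2:**
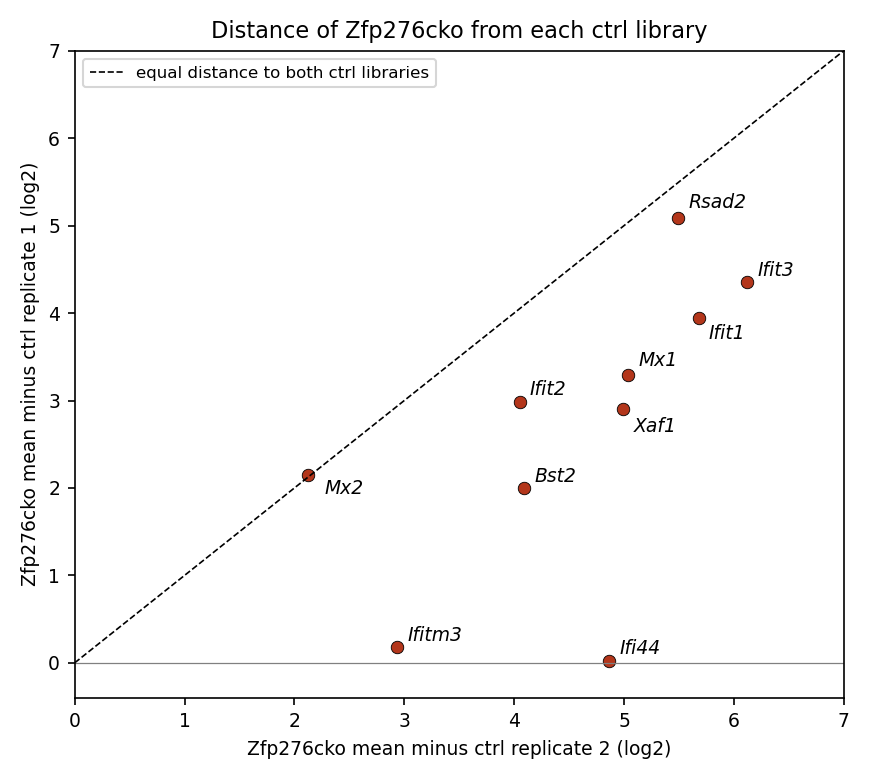
Log2 difference of the mean of the Zfp276cko libraries from ctrl replicate 2 (x axis) and from ctrl replicate 1 (y axis), 1 point per gene, with a dashed line where both are equal. Mx2 lies on the line and Rsad2 near it, while Ifi44 and Ifitm3 lie near 0 against ctrl replicate 1 but at 4.86 and 2.93 against ctrl replicate 2.

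No gene of the 10 was called higher by edgeR's quasi-likelihood test at an adjusted p of 0.05, and of all 15766 tested genes 0% were. Without adjustment 8 of the 10 passed, all but Ifi44 and Ifitm3, against 5.11% of the tested genes. DESeq2 called the same number, 8, and 3.02% of its 14879 genes. Without the filter on low counts edgeR called Rsad2 and Mx2, and 0.029% of 27593 genes. Without TMM factors it called 1 of the 10 and 0.00634% of the tested genes, and its likelihood ratio test called 8 and 2.71%. Without ctrl replicate 1 all 10 were called, as were 10.2% of 16519 genes, and without ctrl replicate 2 it was 8, and 10.8% of 16553 genes. The lower Zfp276cko library exceeded the higher ctrl library for 9 of the 10 genes and for 26.8% of the tested genes. Since the genes were selected on this comparison, nothing about them is read from these shares. With all libraries the median log2 fold change was 3.52 over the 10 genes and −0.0013 over all tested genes. Rsad2 and Mx2, just inside the choice by adjusted p, both had 0.0725 by edgeR's quasi-likelihood test. The genes next in rank were Ccl12, with a log2 fold change of 4.06 and an adjusted p of 0.0845, and Gbp6 and Tmc3, with 3.19 and 2.98 and an adjusted p of 0.0893 each. The other 8 genes held ranks from 102 (Ifit2) to 10364 (Ifi44) of the 15766.

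Levels between genes were compared per kilobase of exon. In Zfp276cko cells the order was Ifit3 (8973 and 8369 normalized counts per kilobase), Bst2 (7125 and 6555), then Ifitm3 (4044 and 3245) and Ifit1 (3811 and 3732), whose values overlapped. Rsad2 followed with 1969 and 2036, Ifit2 with 915 and 1009 and Mx2 with 716 in both. Xaf1 (434 and 451) and Mx1 (419 and 420) were close, and Ifi44 was lowest with 128 and 141. These neighbours depended on the length used. With the longest transcript as length, the share of Xaf1 in the summed level became 2.58% and 2.85% against 1.54% and 1.65% for Mx1, and Mx2 (3.44% and 3.67%) lay above Ifit2 (3.09% and 3.64%). In ctrl cells Ifitm3 was highest in either library, with 3202 and 473 per kilobase, followed by Bst2 with 1706 and 401. Ifit3 held rank 3000 and 7582 among 15469 genes by level per kilobase in the ctrl libraries and rank 49 and 52 in the Zfp276cko libraries. Rsad2 moved from rank 10047 and 10743 to 414 and 380.

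The make-up of the 10 transcripts differed between the genotypes. Of their summed level per kilobase, the 3 Ifit genes held 12.9% and 18.7% in the ctrl libraries and 48.0% and 49.1% in the Zfp276cko libraries. Bst2 and Ifitm3, the genes for membrane proteins, together held 79.8% and 63.8% in the ctrl libraries and 39.1% and 36.7% in the Zfp276cko libraries. The share of Bst2 alone stayed between 24.6% and 29.3% in all 4 libraries. Within the Ifit genes the ratio of Ifit3 to Ifit1 was 1.73 and 1.70 in the ctrl libraries and 2.35 and 2.24 in the Zfp276cko libraries, whereas Ifit2 to Ifit1 was 0.493 and 0.788 in the ctrl libraries and 0.240 and 0.270 in the Zfp276cko libraries. Counted over the whole library, the 10 genes took 0.0306% and 0.00958% of all counts in the ctrl libraries and 0.239% and 0.232% in the Zfp276cko libraries.

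**Figure D3:**
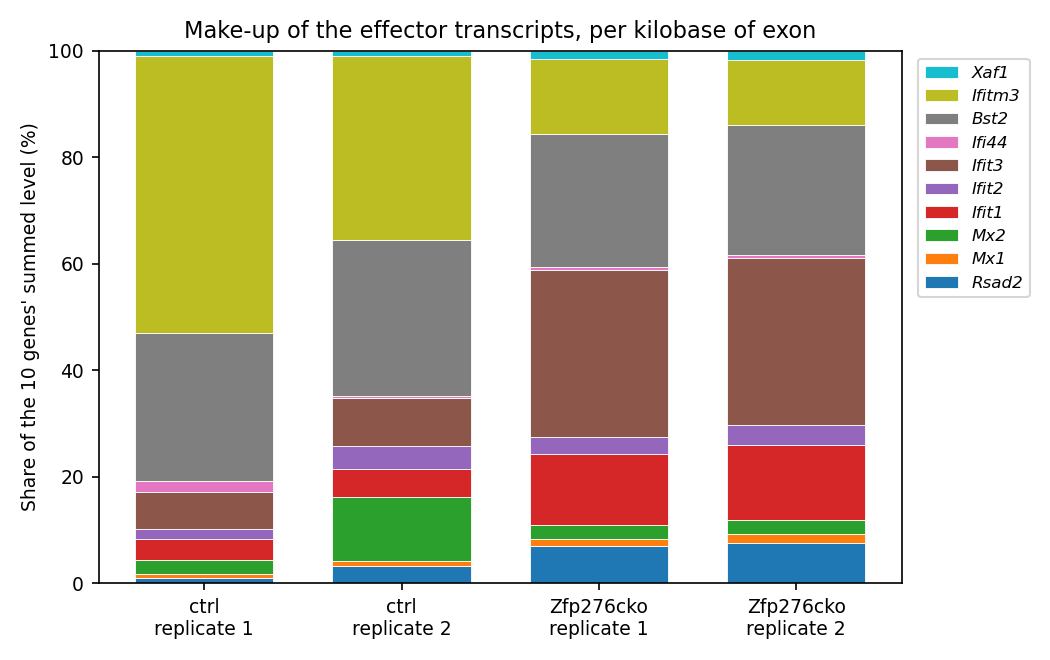
Share of each of the 10 genes in their summed normalized counts per kilobase of exon (y axis, percent), 1 bar per library. Ifitm3 fills 52.0% and 34.5% of the ctrl bars and 14.2% and 12.2% of the Zfp276cko bars, and Ifit3 fills 6.90% and 9.09% of the ctrl bars and 31.4% of both Zfp276cko bars.

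Genes nearest to the median profile of the 10 were taken from 14297 other tested genes, by the distance of each mean-centred log2 profile over the 4 libraries. They were Rnf213 (distance 0.35), Phf11b (0.38), Fam26f (0.39), Phf11d (0.39) and Usp18 (0.42). Of the 10 themselves, only Xaf1 (0.29) and Mx1 (0.32) lay this close to the median profile. Rsad2 (1.70), Mx2 (2.17), Ifitm3 (2.46) and Ifi44 (2.62) lay farthest from it, so the named genes do not resemble each of the 10. Rnf213, a ubiquitin ligase, was at 4754 and 1834 normalized counts in the ctrl libraries and at 41274 and 39402 in the Zfp276cko libraries. Usp18, the protease that removes Isg15 from proteins and restrains the interferon receptor, was at 1034 and 241 in the ctrl libraries and at 9229 and 8546 in the Zfp276cko libraries.

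A list of other antiviral effectors held 36 genes in the files, of which 33 were tested. It was written with earlier results of these data known, so its counts are a description and not an independent test. None passed edgeR's quasi-likelihood test with adjustment, 22 were higher and 2 lower without it, and DESeq2 called 19 higher and 2 lower. Of all tested genes 5.11% were higher and 3.01% lower without adjustment, and DESeq2 called 3.02% of its genes higher and 2.27% lower. The list's median log2 fold change was 1.71, against −0.0013 over all tested genes. In both Zfp276cko libraries 25 of the 33 lay above both ctrl libraries, as did 26.8% of all tested genes. The largest differences were those of Ifit3b (5.05) and the ubiquitin-like modifier Isg15 (4.69), and the lowest those of Serinc5 (−1.13), which keeps retroviruses from entering, and March8 (−0.88), which removes surface proteins. Ctrl replicate 1 was at least 2-fold above replicate 2 for 17 of the 33 and for 7.77% of all tested genes.

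Of 41 genes of the interferon pathway 29 were tested. This list too was written with earlier results of these data known, and its counts are a description. By edgeR's quasi-likelihood test 14 were higher and 0 lower without adjustment and 0 passed with it, while DESeq2 called 11 higher. Over all tested genes 5.11% were higher and 3.01% lower without adjustment, and DESeq2 called 3.02% of its genes higher. Among ligands only Ifnb1 was tested, with 1 and 0 counts in the ctrl libraries and 28 and 26 in the Zfp276cko libraries. Ifna2, Ifna4, Ifna5, Ifnab, Ifnk and Ifng had at most 4 counts in any library, and the receptor gene Ifnlr1 at most 6. The receptor genes had log2 fold changes of −0.17 (Ifnar1), −0.23 (Ifnar2), −0.18 (Ifngr1), 0.19 (Ifngr2) and 0.60 (Il10rb). None was called without adjustment, although Il10rb, with an unadjusted p of 0.00886 by edgeR, missed only the threshold on the fold change. Of 10 genes for kinases and transcription factors 5 were higher without adjustment, led by Irf7 at 3.39, while Jak1 and Jak2 were lowest at −0.26 and −0.24. By the same unadjusted p, 3 of 4 feedback genes were higher, led by Usp18 at 3.80, and 6 of 9 sensors and adaptors, led by Zbp1 at 3.52. Above both ctrl libraries lay 19 of the 29 tested pathway genes, as did 26.8% of all tested genes. By role these were Ifnb1, 1 of 5 receptor genes and 6 of 10 genes for kinases and transcription factors. The others were 7 of 9 sensors and adaptors and 4 of 4 feedback genes, of which Ptpn6 had a log2 fold change of only 0.09.

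**Figure D4:**
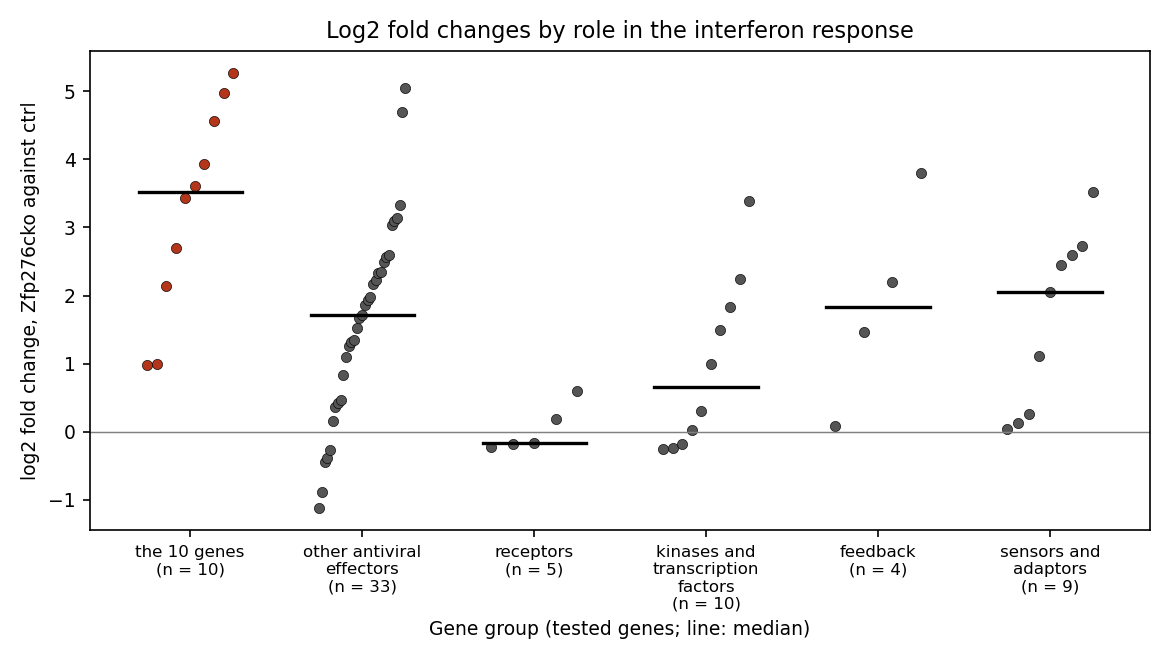
Log2 fold change of Zfp276cko against ctrl (y axis) for the 10 genes and for genes of the interferon response grouped by role (x axis), 1 point per tested gene and a line at the median, with Ifnb1 left out for its low counts. The medians are 3.52 for the 10 genes, 1.71 for the 33 other effectors and −0.17 for the 5 receptors.

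The position of the genes was not part of their choice. The nearest tested genes on either side comprised 16 genes outside the 10, with a median log2 fold change of −0.10 and a range from −1.14 (Bace2, beside Mx1) to 3.14 (Cmpk2). Of these 16, 6 lay above both ctrl libraries, as did 26.8% of all tested genes. Besides those named above they were Plvap (0.96) and Mvb12a (0.28) beside Bst2, Ifitm2 (−0.45) and Ifitm6 (−0.95) beside Ifitm3, Slc13a5 (−0.12) and Smtnl2 (−0.77) beside Xaf1, Dnajb4 (−0.13) and Rpsa-ps10 (0.06) beside Ifi44, and Prdm15 (−0.23) beside Mx2. Ifitm2 and Ifitm6, members of the family of Ifitm3, were higher in ctrl replicate 1 (326 and 51.7 normalized counts) than in ctrl replicate 2 (81.4 and 1.11), as Ifitm3 was.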

How the data were processed

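Poly(A) RNA of 1° OGCs was sequenced as stranded single-end libraries of 101 bp. The authors mapped reads to mm10 (GRCm38) with STAR 2.5.4a and deposited whole-number counts per gene, without normalization or filtering. The paper's methods name HTSeq for counting and the submitters' processing notes name featureCounts 1.5.1. The strand setting is not given in the sources used here.

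The members and gene lists were chosen with earlier results of these data known. Genes kept by filterByExpr were normalized with TMM and compared with edgeR 4.0.16 (quasi-likelihood test, Benjamini-Hochberg adjustment over all tested genes) in R 4.3.3, with limma 3.58.1. DESeq2, the authors' tool, was an alternative, here in version 1.42.0. Genes were called at the thresholds of the study, namely 0.05 for the adjusted p, 0.6 for the log2 fold change in either direction and 20 for the mean of the normalized counts. The SE printed with a log2 fold change was derived from the quasi-likelihood test. It is the absolute log2 fold change divided by the square root of the F statistic. Log2 differences between libraries used a pseudocount of 0.5. Named genes outside the 10 were those next in p, the 5 nearest in profile, chromosomal neighbours, ligands and receptors with a count, the highest and lowest of each list and the marker genes that moved with 1 library, which were chosen after their values were seen. Gene positions and exon lengths came from the GENCODE annotation of mm10, and 98.1% of tested genes had a length. The replicate numbers in the labels name libraries and were not found to pair them, since deviations of same-numbered libraries had a correlation of −0.00504. Replicates were libraries of separate preparations, and p-values measure the spread between these libraries. The code was tested on simulated counts. Likelihood ratio tests were added after the data were seen. Protein sequences were not used here. Some genes of the lists are not reported here.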

Additional observations from a re-analysis of the deposited data

How the results depend on the processing

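No fold change of the 10 genes changed sign. Of 100 fold changes compared with the values above, 97 moved by less than the spread between the replicate libraries of the gene and 3 by more, those of Mx2 (2.23 without TMM factors and 2.16 without the filter on low counts) and of Ifi44 (4.88 without ctrl replicate 1). This spread is small for Mx2, whose values differ by little, and wide for Ifitm3, whose fold change of 0.99 became 2.94 without ctrl replicate 1. The spread was taken from the same libraries, so leaving out 1 replicate can seldom exceed it. The count of 97 is therefore not a measure of stability. Calls depended on the test. Of the 10 genes, edgeR's quasi-likelihood test called 0 with adjustment, 1 without TMM factors, 2 without the filter on low counts and 8 at an unadjusted p, and DESeq2 and the likelihood ratio test, the latter chosen after the data were seen, called 8 each. Fits with 1 library left out are given by fold change only, because the pair that remains then sets the variance alone. The mean chi-square between replicates was 80.0 for the ctrl pair and 5.23 for the Zfp276cko pair. The median log2 fold change ran from 2.94 to 4.94, the latter without ctrl replicate 1. A library left out leaves 1 library in a genotype, which is assumed to vary like the others. With a replicate block, which the numbers do not justify as a pairing, the median was 3.69 and 0 genes were called. Of the 33 other effectors, 1 was called without the filter, 19 by DESeq2 and 22 at an unadjusted p, against 0. With the longest transcript as length 15 of 40 shares moved, by at most 3.79 percentage points. With 2 libraries per genotype, spread within a genotype is poorly known.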

Other observations

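Among the other antiviral effectors, Ifi44l, a paralog of Ifi44 had 154 counts in ctrl replicate 1 and 0 in the other 3 libraries, and did not pass edgeR's filter. DESeq2 gave it an adjusted p of 0.360. Ifitm1 had 19 and 2 counts in the ctrl libraries and 6 and 8 in the Zfp276cko libraries. Both were chosen after their values were seen. Of the markers of plasmacytoid dendritic and lymphoid cells, Cd3e, Nkg7 and Siglech had 1 count or fewer in each library, while Tcf4, which other cells also express, had 10452 to 17974. Among markers of other cell types, 11 of the 12 oligodendrocyte genes were lower in Zfp276cko cells at an unadjusted p by edgeR's quasi-likelihood test, 9 by DESeq2 and 0 after adjustment, where 3.01% of all tested genes were lower at an unadjusted p and 2.27% by DESeq2. Of the 17 tested microglia and macrophage markers 2 were higher and 1 lower at an unadjusted p, against 5.11% and 3.01% of all tested genes. Cd68 had the highest log2 fold change, 0.99. The summed level of these markers was 75999.6 and 53190 normalized counts in the ctrl libraries, while the Zfp276cko libraries had 57798 and 59571, so that both Zfp276cko libraries lay between the ctrl libraries. OPC markers summed to 184211 and 141169 in the ctrl libraries and to 104815 and 102606 in the Zfp276cko libraries. Gpr17 was the largest part in each library, at 112335 and 69108 in ctrl and at 42887 and 40704 in Zfp276cko. Its log2 fold change was −1.12, against −0.59 for Cspg4, −0.39 for Bcan, −0.25 for Ptprz1, −0.13 for Pdgfra and 0.13 for Lhfpl3. Neuron markers summed to 15821 and 24836 in the ctrl libraries and to 15526 and 16958 in the Zfp276cko libraries. Most of the neuron sum was Map2, while Gad1 had 77.6 and 1983 normalized counts in the ctrl libraries and 912 and 993 in the Zfp276cko libraries. Astrocyte markers summed to 48475 and 45597 in the ctrl libraries and to 44778 and 42481 in the Zfp276cko libraries. The part of any of these cells in the level of the 10 genes was not tested.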
